A study of Mus musculus with 8 samples.

Results

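Described here are 9 genes of fatty acid synthesis and the sterol response, Srebf1, Srebf2, Mlxipl, Acly, Acaca, Acacb, Fasn, Me1 and Thrsp. They were chosen by name, as lipogenic and SREBP pathway genes that n-3 fatty acids are known to suppress in liver. The rule uses no measured value, but the choice was made with earlier results of these data known. All 9 were found among the 25929 genes of the table, and all 9 passed the filter on low values with 253 to 34191 fragments per gene and library. In these hearts 6 of the 9, Srebf1, Srebf2, Acly, Acaca, Fasn and Thrsp, had higher mRNA levels in each WT-TAC library than in any WT-Sham or Fat1-TAC library, while Acacb and Me1 did not. Of all tested genes, 52.5% had both WT-TAC libraries above both WT-Sham libraries and 57.1% had both above both Fat1-TAC libraries. No difference in any of the 9 passed the test across all genes, and the levels of Fasn, Acaca, Acly and Thrsp followed the level of adipocyte mRNAs from library to library.

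RNA-sequencing was performed on hearts of wild-type (WT) mice, labelled C57BL/6, and of transgenic fat-1 littermates, which express a Caenorhabditis elegans n-3 desaturase that turns n-6 into n-3 polyunsaturated fatty acids. At an age of 3 months the mice underwent transverse aortic constriction (TAC), which loads the left ventricle with pressure, or a sham operation in which the chest was opened without constriction, and all were kept on a regular diet. The 4 groups, WT-Sham and WT-TAC from wild-type mice and Fat1-Sham and Fat1-TAC from fat-1 mice, held 2 libraries each, described as independent samples. The labels name ventricular tissue and the methods whole hearts, and the promoter that drives the transgene is not given in the sources used here. The p-values below measure only the spread between these samples.

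SREBPs are membrane-bound transcription factors that are cut and enter the nucleus when sterols are low or insulin is high. SREBP-1c, from Srebf1, drives fatty acid synthesis, SREBP-2, from Srebf2, drives cholesterol synthesis and uptake, and ChREBP, from Mlxipl, answers to glucose metabolites. Lipogenesis is high in liver and fat, whereas heart muscle mainly burns fatty acids, and there malonyl-CoA made by the Acacb enzyme restrains their entry into mitochondria.

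SREBPs bind sterol regulatory elements in promoters, often beside sites for NF-Y, which binds the CCAAT box, and for SP1, which binds the GC box. The promoters of 3 genes are printed to show how such sites lie in them: Fasn, whose level varied most between libraries, Acly, whose difference between Fat1-TAC and WT-TAC had the lowest adjusted p of the 9, and Srebf2, which is itself a sterol-regulated gene. The letters come from RefSeq on GRCm38.p6, in which all 9 genes had a promoter window (13 windows). Only bases before the annotated transcripts are shown, 5′ to 3′ on the strand of the gene. Capitals mark ATCACCC (the core of a sterol regulatory element), CCAAT (the NF-Y box), GGGCGG (GC box) and CACGTG (E box), each searched on both strands.
Fasn, chr11:120824548-120824717, minus strand: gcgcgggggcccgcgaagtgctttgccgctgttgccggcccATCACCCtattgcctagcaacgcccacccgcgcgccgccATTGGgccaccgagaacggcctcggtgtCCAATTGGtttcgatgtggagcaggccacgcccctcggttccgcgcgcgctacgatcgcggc
Acly, chr11:100528001-100528170, minus strand: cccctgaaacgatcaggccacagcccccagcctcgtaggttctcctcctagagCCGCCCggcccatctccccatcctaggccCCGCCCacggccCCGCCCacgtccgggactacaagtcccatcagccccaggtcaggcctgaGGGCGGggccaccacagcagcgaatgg
Srebf2, chr15:82147019-82147180, plus strand: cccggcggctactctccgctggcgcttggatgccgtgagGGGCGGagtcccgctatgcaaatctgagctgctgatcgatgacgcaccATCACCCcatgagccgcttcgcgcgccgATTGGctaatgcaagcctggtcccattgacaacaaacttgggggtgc

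The ATCACCC core was in 2.28% of 32851 promoter windows over the 250 bases before the start, and in 2 of the 13 windows of these genes, those of Fasn and Srebf2. In Fasn it began 129 bases before the start, with CCAAT boxes at 90, 62 and 59 bases, the last pair overlapping in the run CCAATTGG. In Srebf2 it began 163 bases before the RefSeq start and a CCAAT box followed at 135 bases. A CCAAT box was in 33.8% of all windows and in 8 of the 13 windows of these genes. A GC box was in 32.7% of all windows and in 6 of the 13. The Acly window held 4 GC boxes, at 117, 88, 76 and 27 bases. The Srebf2 window held as many, at 211, 79, 52 and 34 bases, of which the printed stretch shows only the first. The E box, the kind of site ChREBP binds, was in 6.02% of all windows and, among these genes, in Mlxipl itself at 98 bases. The motifs were chosen with these sequences in view, and a match is a run of letters and not a measured site.

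The libraries held 14163994 to 21218331 fragments, recovered from the FPKM values, and WT-TAC1 stood apart from the rest. The 2 WT-TAC libraries differed more than 2-fold in 2560 of 14442 genes, against 275 to 362 genes in the other groups. WT-TAC1 was the highest of the 8 libraries for 58.1% of the tested genes, and the median log2 fold change of all tested genes was 0.39 between WT-TAC and WT-Sham and -0.40 between Fat1-TAC and WT-TAC. Summed cardiomyocyte markers were at 23160 FPKM in WT-TAC1 and at 42330 to 56240 FPKM in the others. Summed airway epithelium markers were at 1593 to 3787 FPKM in WT-TAC and at 2.05 to 50.2 FPKM elsewhere, and summed adipocyte markers at 1391 to 1875 FPKM in WT-TAC and at 284 to 738 FPKM elsewhere. The part of this tissue makeup in the values below was not tested, except where a value is given.

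Srebf1, on chr11:60199089-60222581 of GRCm38, had 17.4 and 37.4 FPKM in WT-Sham, 90.6 and 64.4 FPKM in WT-TAC, 29.1 and 21.3 FPKM in Fat1-Sham, and 26.6 and 36.5 FPKM in Fat1-TAC. Both WT-TAC libraries lay above the other 6, which overlapped each other. The log2 fold change of Srebf1 between WT-TAC and WT-Sham was 1.54 (SE 0.37, limma adjusted p = 0.166), or 1.15 above the median of all genes, and that between Fat1-TAC and WT-TAC was -1.27 (SE 0.37, limma adjusted p = 0.158).

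Srebf2, on chr15:82147181-82205379, had 6.84 and 7.54 FPKM in WT-Sham, 25.8 and 10.4 FPKM in WT-TAC, 9.09 and 7.65 FPKM in Fat1-Sham, and 5.67 and 7.41 FPKM in Fat1-TAC. WT-TAC1 was far above all others and WT-TAC2 only slightly, so that the difference from WT-Sham was 1.10 on the log2 scale (SE 0.38, limma adjusted p = 0.175) with both libraries and 0.48 without WT-TAC1. The difference between Fat1-TAC and WT-TAC was -1.22 (limma adjusted p = 0.162), and -0.61 without WT-TAC1. Relative to the medians of all genes the 2 differences with both libraries were 0.71 and -0.82.

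Mlxipl, on chr5:135089890-135138382, had 10.4 and 14.01 FPKM in WT-Sham, 12.8 and 25.3 FPKM in WT-TAC, 12.8 and 11.4 FPKM in Fat1-Sham, and 12.4 and 18.8 FPKM in Fat1-TAC. WT-TAC2 was the highest library, but WT-TAC1 lay within the range of the sham libraries. The log2 difference of Mlxipl from WT-Sham was 0.54 in WT-TAC (limma adjusted p = 0.287), close to the shift of all genes, and that of Fat1-TAC from WT-TAC was -0.22 (limma adjusted p = 0.633), which became 0.21 after scaling by the median of ratios.

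**Figure D1:**
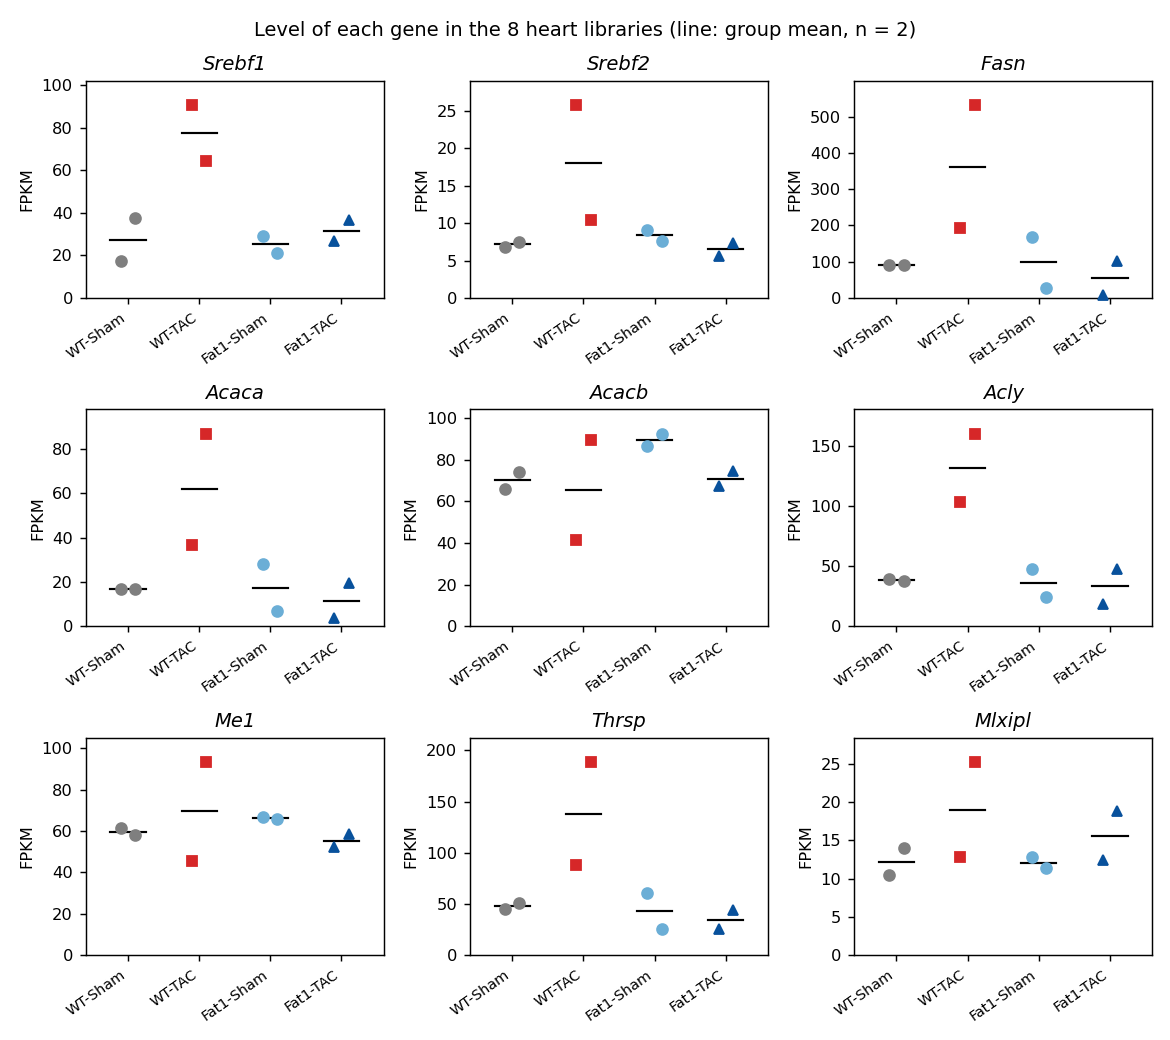
FPKM of each of the 9 genes (vertical axis, from 0) in the 4 groups (horizontal axis), with 1 point per library and a line at the group mean. In Srebf1, Srebf2, Fasn, Acaca, Acly and Thrsp both WT-TAC squares lie above all WT-Sham and Fat1-TAC points, with the WT-TAC libraries of Fasn at 193 and 532 FPKM.

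The enzymes that carry acetyl units into fatty acids varied more. Acly, on chr11:100476353-100528000, encodes ATP citrate lyase, which makes cytosolic acetyl-CoA from citrate. Its level was 39.6 and 37.7 FPKM in WT-Sham, 103 and 160 FPKM in WT-TAC, 48.0 and 24.6 FPKM in Fat1-Sham, and 18.3 and 48.0 FPKM in Fat1-TAC. Both WT-TAC libraries were above the other 6, and the fat-1 libraries spread to both sides of WT-Sham. The log2 difference of Acly was 1.71 between WT-TAC and WT-Sham (SE 0.48, limma adjusted p = 0.175) and -2.07 between Fat1-TAC and WT-TAC (SE 0.48, limma adjusted p = 0.125), a fold of 0.238.

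Acaca, on chr11:84129672-84401651, encodes acetyl-CoA carboxylase 1, the cytosolic enzyme whose malonyl-CoA feeds fatty acid synthesis. It had 16.8 and 17.0 FPKM in WT-Sham, 36.8 and 86.9 FPKM in WT-TAC, 28.0 and 6.98 FPKM in Fat1-Sham, and 3.98 and 19.3 FPKM in Fat1-TAC. The WT-Sham libraries were nearly equal, while the libraries of each other group were 2-fold or more apart. Its log2 differences were 1.69 (SE 0.81, limma adjusted p = 0.199) for WT-TAC against WT-Sham and -2.52 (SE 0.81, limma adjusted p = 0.163) for Fat1-TAC against WT-TAC.

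Fasn, on chr11:120805846-120824547, encodes fatty acid synthase, which builds palmitate. Its level was 89.9 and 90.0 FPKM in WT-Sham, 193 and 532 FPKM in WT-TAC, 169 and 26.9 FPKM in Fat1-Sham, and 8.06 and 101 FPKM in Fat1-TAC. The highest library, WT-TAC2, was 66.0-fold above the lowest, Fat1-TAC1, where this ratio had a median of 2.23 over the 13929 tested genes above 0 in every library. Both WT-TAC libraries were above all others, yet Fat1-Sham1 came close to WT-TAC1, and Fat1-TAC2 was above both WT-Sham libraries. The log2 difference of Fasn was 1.82 for WT-TAC against WT-Sham (SE 1.22, limma adjusted p = 0.306) and -3.40 for Fat1-TAC against WT-TAC (SE 1.22, limma adjusted p = 0.163).

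Thrsp, on chr7:97412938-97417730, encodes Spot 14, a protein that promotes lipogenesis in liver and fat. It had 44.9 and 50.3 FPKM in WT-Sham, 87.8 and 189 FPKM in WT-TAC, 60.5 and 25.3 FPKM in Fat1-Sham, and 24.9 and 44.0 FPKM in Fat1-TAC. Both WT-TAC libraries were the highest and both Fat1-TAC libraries lay below WT-Sham. The log2 difference of Thrsp was 1.42 for WT-TAC against WT-Sham (SE 0.50, limma adjusted p = 0.175) and -1.92 for Fat1-TAC against WT-TAC (SE 0.50, limma adjusted p = 0.143).

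The other 2 enzymes had another pattern. Acacb, on chr5:114146535-114250761, encodes acetyl-CoA carboxylase 2, the isoform at the mitochondrial surface in heart and skeletal muscle. Its level was 66.1 and 74.2 FPKM in WT-Sham, 41.6 and 89.3 FPKM in WT-TAC, 86.5 and 92.5 FPKM in Fat1-Sham, and 67.5 and 74.4 FPKM in Fat1-TAC. WT-TAC1 was the lowest library and WT-TAC2 among the highest, and the log2 differences of Acacb were -0.20 against WT-Sham (limma adjusted p = 0.665) and 0.21 for Fat1-TAC against WT-TAC (limma adjusted p = 0.624). Me1, on chr9:86581371-86695953, encodes the cytosolic malic enzyme, a source of NADPH for synthesis. It had 61.4 and 58.0 FPKM in WT-Sham, 45.5 and 93.4 FPKM in WT-TAC, 66.8 and 65.6 FPKM in Fat1-Sham, and 52.1 and 58.5 FPKM in Fat1-TAC. Here too the WT-TAC libraries were the lowest and the highest of the 8, and the log2 difference of Me1 was 0.13 against WT-Sham (limma adjusted p = 0.77) and -0.24 for Fat1-TAC against WT-TAC (limma adjusted p = 0.562), with both signs turned by the median-of-ratios scaling (-0.34 and 0.22).

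The ratio of the 2 carboxylase mRNAs, Acaca to Acacb on the FPKM scale, was 0.255 and 0.23 in WT-Sham, 0.886 and 0.972 in WT-TAC, 0.324 and 0.0754 in Fat1-Sham, and 0.0589 and 0.26 in Fat1-TAC. A ratio within a library does not depend on how libraries are scaled to each other, and the WT-TAC libraries, far apart for each gene alone, gave nearly the same ratio. It can still differ with tissue makeup, and Acaca followed the adipocyte markers described below (r = 0.954) while Acacb did not (r = -0.126). The part of tissue makeup in this ratio was not tested. The Srebf1 to Srebf2 ratio ran from 2.54 in WT-Sham1 to 6.18 in WT-TAC2, with WT-TAC1 at 3.51 inside the range of the sham libraries.

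TAC was compared with sham surgery in WT hearts to ask how pressure overload alters lipogenic mRNAs. limma called 0 of the 9 genes at an adjusted p under 0.1 with a fold change over 1.5, where 0.935% of the 14442 tested genes were called. At a nominal threshold, an unadjusted p under 0.05 and the same fold change, 4 of the 9 were higher in WT-TAC (Srebf1, Srebf2, Acly and Thrsp), beside 22.7% of all genes. In 6 of the 9 both WT-TAC libraries were above both WT-Sham libraries, as in 52.5% of all genes. The median log2 difference of the 9 genes was 1.42 against 0.39 for all genes, and 0.95 against -0.02 after scaling by the median of ratios. With that scaling the WT-TAC libraries of the same 6 genes lay above all WT-Sham and Fat1-TAC libraries. The share of all genes that did so after scaling was not computed, so this count does not set the 6 genes apart. Of the WT-TAC libraries, 1 then lay within the range of Fat1-Sham for Fasn (127.7 against 181.9 scaled FPKM), Acaca (24.4 against 30.1), Thrsp (58.2 against 65.0) and Srebf2 (9.47 against 9.76). The scaling also moved the balance of all genes at the nominal threshold, from 3275 higher and 160 lower to 969 higher and 1108 lower.

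Fat1-TAC hearts were compared with WT-TAC hearts to ask what the transgene alters under pressure overload. These differences rest on the same WT-TAC libraries, so an opposite sign in the 2 comparisons is no separate observation. limma called 0 of the 9 genes, where 1.43% of all genes were called. At the nominal threshold 6 of the 9 were lower in Fat1-TAC (Srebf1, Srebf2, Fasn, Acaca, Acly and Thrsp), beside 23.5% of all genes. The same 6 were lower in both Fat1-TAC libraries than in both WT-TAC libraries, as were 57.1% of all genes. The median log2 difference of the 9 genes was -1.27 against -0.40 for all genes, and -0.80 against -0.002 after scaling by the median of ratios. That scaling moved the balance of all genes at the nominal threshold from 248 higher and 3389 lower to 1283 higher and 1047 lower, and 5 of the 9 were then lower.

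A single library decided whether any of the 9 was called. Without WT-TAC2 the remaining WT-TAC1 is assumed to vary like the other groups. limma then called 4 of the 9 between WT-TAC and WT-Sham, with log2 differences of 1.79 for Srebf1, 1.71 for Srebf2, 1.39 for Acly and -0.74 for Acacb. In that fit 6155 genes were called up and 910 down of 13983 tested. Between Fat1-TAC and WT-TAC the same fit called Srebf1 (-1.51), Srebf2 (-1.84), Acly (-1.76), Thrsp (-1.38) and Acacb (0.75), among 1079 genes up and 6444 down. Without Fat1-TAC2, Acly alone of the 9 was called (-2.74, limma adjusted p = 0.083), among 4 genes up and 131 down of 14340 tested. Without WT-TAC1, 0 of the 9 were called in either comparison, although Fasn (2.55 and -4.13), Acaca (2.29 and -3.13) and Thrsp (1.97 and -2.47) then had larger log2 differences.

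**Figure D2:**
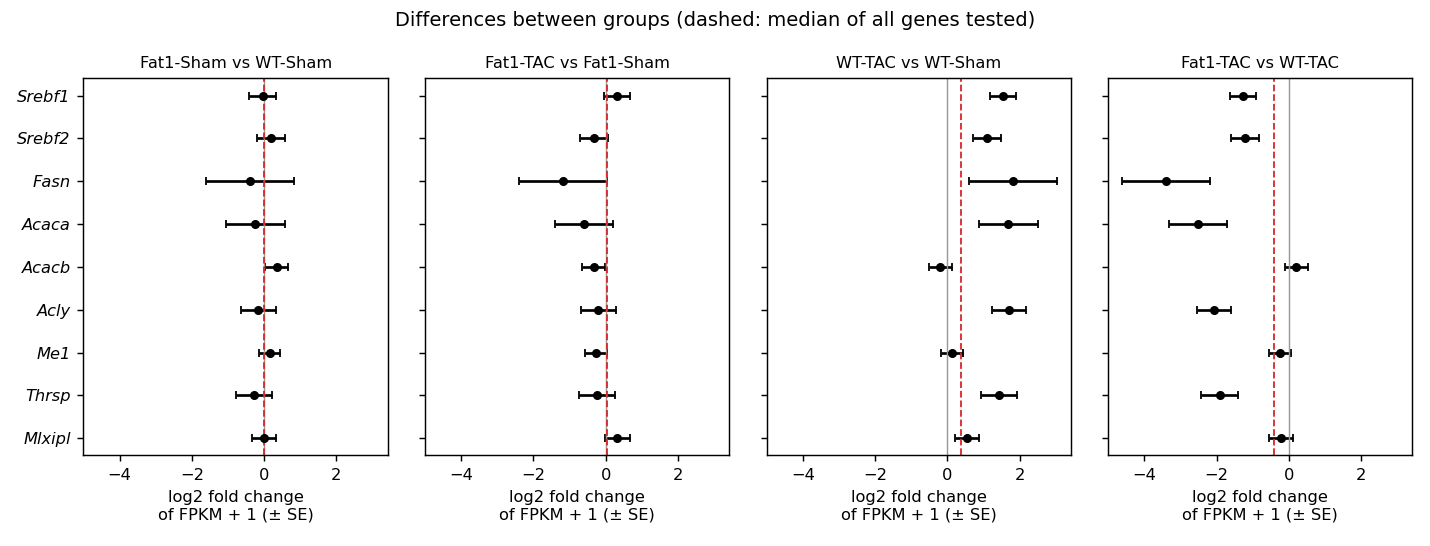
Log2 fold change of FPKM + 1 with its SE (horizontal axis) for the 9 genes in 4 comparisons of 2 libraries against 2, with a dashed line at the median of all tested genes. In the comparisons with WT-TAC, Srebf1, Srebf2, Fasn, Acaca, Acly and Thrsp lie beyond the dashed line (0.39 and -0.40), while between the sham groups all 9 lie between -0.40 and 0.35.

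Between the sham groups, which compare the genotypes without pressure overload, limma called 0 of the 9 genes and 0% of all genes. At the nominal threshold 0 of the 9 differed, where 0.893% of all genes did. The log2 differences of the 9 genes ran from -0.40 for Fasn (SE 1.22) to 0.35 for Acacb (SE 0.32), each with a limma adjusted p of 1. The regulators Srebf1 (-0.04, SE 0.37) and Srebf2 (0.19, SE 0.38) were within their errors of 0. For Fasn, the Fat1-Sham libraries of 169 and 26.9 FPKM stood on both sides of WT-Sham.

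In fat-1 hearts, TAC was set against sham surgery in the same way. limma called 0 of the 9 genes, where 0.00692% of all genes, a single gene, were called, and 0 of the 9 passed the nominal threshold, where 1.86% of all genes did. The log2 differences of the 9 genes ran from -1.18 for Fasn (SE 1.22) to 0.32 for Mlxipl (SE 0.34), with a median of -0.26 against 0.02 for all genes. Srebf2, Acacb and Me1 were lower in both Fat1-TAC libraries than in both Fat1-Sham libraries, with log2 differences of -0.32, -0.33 and -0.26, and each had a limma adjusted p of 1. Of all tested genes, 21.5% were lower without overlap in the same way.

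The interaction of genotype and surgery tests whether the response to TAC differed between fat-1 and WT hearts. limma called 0 of the 9 genes, where 0.0692% of all genes were called, and at the nominal threshold Srebf2 and Acly were lower, beside 6.38% of all genes. The interaction was -3.00 on the log2 scale for Fasn (SE 1.73), -2.28 for Acaca (SE 1.14), -1.91 for Acly (SE 0.68), -1.66 for Thrsp (SE 0.71), -1.42 for Srebf2 (SE 0.54) and -1.23 for Srebf1 (SE 0.53), each with a limma adjusted p of 0.495. It was -0.38 for Me1, -0.22 for Mlxipl and -0.14 for Acacb, with limma adjusted p of 0.617 to 0.869. The median over the 9 genes was -1.42 against -0.37 for all genes.

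Averaged over surgery, 0 of the 9 genes differed between the genotypes by limma, where 0.0415% of all genes did. At the nominal threshold 4 of the 9 were lower in fat-1 hearts (Srebf1, Acaca, Acly and Thrsp), beside 7.39% of all genes. The averaged log2 difference was -1.12 for Acly (SE 0.34), -1.10 for Thrsp (SE 0.35), -1.38 for Acaca (SE 0.57) and -0.65 for Srebf1 (SE 0.26). Averaged over genotype, 0 of the 9 differed between TAC and sham, where 0% of all genes did, and Srebf1 (0.93, SE 0.26) alone of the 9 was higher at the nominal threshold, beside 7.67% of all genes.

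Fat cells also carry lipogenic mRNAs, so the 9 genes were set against 10 adipocyte markers in each library. In bulk tissue, fewer cells of a type and less RNA per cell cannot be told apart. Adipoq, which encodes the fat cell hormone adiponectin, had 28.1 and 35.1 FPKM in WT-Sham, 100 and 120 FPKM in WT-TAC, 42.5 and 9.04 FPKM in Fat1-Sham, and 0.818 and 40.7 FPKM in Fat1-TAC. Its order over the libraries was close to that of Fasn, with both WT-TAC libraries at the top and Fat1-TAC1 and Fat1-Sham2 at the bottom. All 10 markers were tested, 10 had a higher mean after TAC than after sham surgery in WT hearts, with a median log2 difference of 1.78, and 10 had a lower mean in Fat1-TAC than in WT-TAC with a median of -3.01, while limma called 0 of them.

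The correlation of each gene with the median adipocyte level was taken on log2(FPKM + 1) over the 8 libraries. It was tested by a two-sided exact permutation test and adjusted over the 9 genes. The test treats the 8 libraries as exchangeable, although they form 4 groups of 2. A difference between groups that both levels share therefore also lowers its p. The share of all genes with such a correlation is not given here, so the p-values do not set these genes apart from others. Pearson's r was 0.974 for Fasn (exact permutation p = 7.44e-05, adjusted 0.00067), 0.954 for Acaca (p = 0.000397, adjusted 0.00179), 0.92 for Acly (p = 0.00151, adjusted 0.00454) and 0.881 for Thrsp (p = 0.00494, adjusted 0.0111), and Spearman's rho was 0.976, 0.976, 0.929 and 0.976 (adjusted exact p of 0.00119 to 0.00502). Among the 6 libraries outside WT-TAC, r was 0.974 for Fasn, 0.955 for Acaca, 0.949 for Acly and 0.88 for Thrsp, and without Fat1-TAC1 and WT-TAC2, the 2 libraries farthest from the median adipocyte level, it was 0.914, 0.947, 0.935 and 0.962.

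The regulators followed it less closely. For Srebf1, r was 0.70 (exact permutation p = 0.0529, adjusted 0.0952) with rho 0.81 (adjusted 0.0327), and r was 0.878 without the 2 farthest libraries but 0.366 without WT-TAC. For Srebf2, r was 0.667 (exact permutation p = 0.0959, adjusted 0.144) with rho 0.833 (adjusted 0.0277), and 0.756 and 0.823 in the same reduced sets. For Mlxipl, r was 0.549 (exact permutation p = 0.16, adjusted 0.206) with rho 0.667 (adjusted 0.107). For Me1 it was 0.339 (exact permutation p = 0.395, adjusted 0.445) with rho 0.262 (adjusted 0.603), and for Acacb -0.126 (exact permutation p = 0.741, adjusted 0.741) with rho 0.048 (adjusted 0.935). The signs of Me1 and Acacb depended on which 2 libraries were left out, with r of -0.748 and -0.73 without the 2 farthest and 0.583 and 0.281 without WT-TAC. No batch is named in the labels, so no relation was recomputed within batches.

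**Figure D3:**
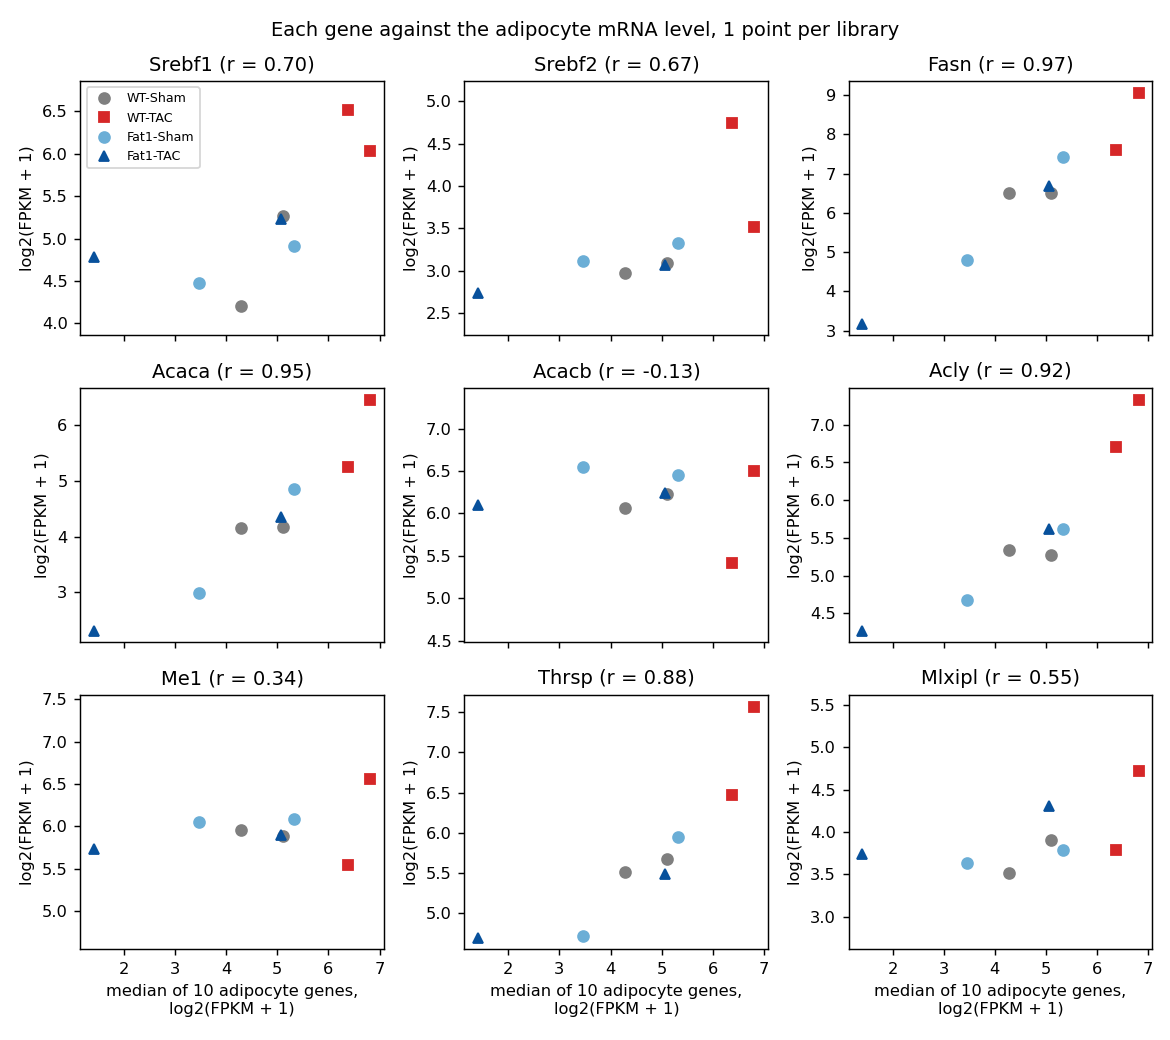
Level of each of the 9 genes (vertical axis) against the median level of 10 adipocyte markers (horizontal axis), both as log2(FPKM + 1), with 1 point per library and symbols by group. Fasn (r = 0.974), Acaca (0.954), Acly (0.92) and Thrsp (0.881) rank the libraries almost as the adipocyte markers do, whereas Acacb (-0.126) does not.

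The ratio of Fasn to Adipoq mRNA was 3.20 and 2.56 in WT-Sham, 1.92 and 4.44 in WT-TAC, 3.98 and 2.97 in Fat1-Sham, and 9.86 and 2.48 in Fat1-TAC. Relative to Adipoq alone, Fasn in the WT-TAC libraries lay on both sides of the WT-Sham values. The outlying value was that of Fat1-TAC1, where Adipoq itself was at 0.818 FPKM. Adipoq is 1 of the 10 markers, and these rose unequally. Fabp4 had 204 and 221 FPKM in WT-Sham and 245 and 392 FPKM in WT-TAC. Lep had 0.269 and 0.999 FPKM in WT-Sham and 10.2 and 9.41 FPKM in WT-TAC. Ratios to the other markers were not computed, and the part of fat cells in the differences was not tested. The ratio of Acly to Adipoq was 1.41 and 1.07 in WT-Sham and 1.03 and 1.34 in WT-TAC, which overlapped for this marker. It was 1.13 and 2.72 in Fat1-Sham, and 22.4 and 1.18 in Fat1-TAC. The brown fat marker Ucp1 was at 12.04 and 44.0 FPKM in WT-Sham, 39.4 and 102 FPKM in WT-TAC, 36.4 and 0.031 FPKM in Fat1-Sham, and 0 and 0.943 FPKM in Fat1-TAC. Summed hepatocyte markers were at 1.46 to 9.13 FPKM over all libraries.

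Among the 9 genes, Fasn, Acaca, Acly and Thrsp ran together over the 8 libraries, with Pearson's r of 0.99 between Fasn and Acaca and of 0.97 between Acaca and Acly, Acaca and Thrsp, and Acly and Thrsp. Srebf1 and Srebf2 were related to each other (r = 0.82) and Srebf1 to Acly (r = 0.80). Acacb was related to Me1 (r = 0.78) and ran against Srebf2 (r = -0.66). These are descriptions over 8 libraries that share depth, tissue makeup and the WT-TAC libraries.

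The genes whose levels ran most like each of the 9, out of 9449 with a mean of 5 FPKM or more, differed between the groups of genes. For Fasn they were Cdo1 (r = 0.989), a cysteine dioxygenase, Scd1 (r = 0.989), the stearoyl-CoA desaturase, and Adrb3 (r = 0.975), the β3-adrenergic receptor of fat cells. For Acaca they were Slc25a1 (r = 0.982), the mitochondrial citrate carrier, Adrb3 (r = 0.978) and Ces1f (r = 0.975). Acly ran most like Tkt (r = 0.985), the transketolase of the pentose phosphate pathway, Rspo1 (r = 0.985) and Dgat1 (r = 0.981), and Thrsp most like Slc36a2 (r = 0.986), 1700037H04Rik (r = 0.984) and Tkt (r = 0.984). For Srebf1 the genes were Enpp5 (r = 0.99), Ptprs (r = 0.989) and Wasl (r = 0.989), and for Srebf2 Med13l (r = 0.996), Col4a3bp (r = 0.996) and Brd1 (r = 0.995). Acacb ran most like Kif1c (r = 0.984) and Gm37829 (r = 0.984), Me1 most like Gphn (r = 0.977), March8 (r = 0.962) and Fbxw8 (r = 0.955), and Mlxipl most like Tead3 (r = 0.968), Sept8 (r = 0.964) and Rhbdf1 (r = 0.961).

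The other genes of these pathways were taken from 5 lists of 54 genes, of which 52 passed the filter. limma called 0 of the 52 between WT-TAC and WT-Sham. Between Fat1-TAC and WT-TAC it called G6pdx alone, which encodes the glucose-6-phosphate dehydrogenase that supplies NADPH for lipogenesis, so that 1 of 52 genes was called beside 1.43% of all genes. G6pdx had 7.07 and 11.6 FPKM in WT-Sham, 24.98 and 20.7 FPKM in WT-TAC, 8.94 and 5.89 FPKM in Fat1-Sham, and 6.08 and 7.45 FPKM in Fat1-TAC, and it fell by 1.62 on the log2 scale (SE 0.29, limma adjusted p = 0.0791). This call held under 3 of 18 alternatives and was lost under 15, with log2 differences of -1.76 to -1.16 and limma adjusted p of 0.00329 to 0.469.

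Of the 14 other lipogenic enzymes, 11 had a higher mean after TAC than after sham surgery in WT hearts and 11 a lower mean in Fat1-TAC than in WT-TAC, with median log2 differences of 1.01 and -1.06, beyond the medians of all genes. Scd1 was at the upper end of the first comparison (2.25, SE 1.66, limma adjusted p = 0.344) and at the lower end of the second (-4.15, limma adjusted p = 0.166), and like Fasn it was lowest in Fat1-TAC1 (3.93 FPKM) and highest in WT-TAC2 (662 FPKM). Mlycd, which encodes malonyl-CoA decarboxylase and so acts against the carboxylases, was at the lower end of the first (-0.75, limma adjusted p = 0.175), and Gpam at the upper end of the second (0.68, limma adjusted p = 0.167).

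Of the 21 tested genes of cholesterol synthesis and uptake, the SREBP-2 pathway, 20 had a higher mean after TAC than after sham surgery in WT hearts and 19 a lower mean in Fat1-TAC than in WT-TAC, with median log2 differences of 0.77 and -0.77. Acat2 stood at the lower end of the second comparison (-1.85, limma adjusted p = 0.109), and Hsd17b7 ran the other way in both comparisons (-0.60 and 0.26). After both differences are set against the medians of all genes, 0.39 and -0.40, less remained of this list than of the lipogenic enzymes. After scaling by the median of ratios the medians were 0.33 and -0.34 for this list, with 17 genes higher in the first comparison and 18 lower in the second, and 0.56 and -0.61 for the lipogenic enzymes.

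The 5 genes that process SREBPs had medians of 0.64 and -0.61. Mbtps1, the site-1 protease that makes the first cut, stood at the ends of this list (1.12 and -1.11, limma adjusted p of 0.175 and 0.163) with 66.7 FPKM in WT-TAC1 and 16.0 to 27.5 FPKM elsewhere, and Insig2, a retention protein of the endoplasmic reticulum, at the other ends (-0.16 and -0.04). The 8 lipogenic regulators, among them the LXR genes Nr1h2 and Nr1h3, had medians of 0.44 and -0.40, the same as all genes within 0.05, and their signs turned with that scaling (-0.03 and 0.05). Mlx, the partner of ChREBP, was at the upper end of the first comparison (0.67), and Mid1ip1, a relative of Thrsp, at the upper end of the second (0.21). The 4 LXR targets had medians of 0.92 and -0.86, with Abcg1 at the ends of both (1.74 and -1.90, limma adjusted p of 0.191 and 0.169) and a level of 31.4 FPKM in WT-TAC1 against 1.87 to 3.27 FPKM in the other 7 libraries, WT-TAC2 included. In the other 2 comparisons, of the sham groups with each other and of TAC with sham in fat-1 hearts, limma called 0 genes of any of the 5 lists, each with an adjusted p of 1, and 0 of them passed the nominal threshold.

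**Figure D4:**
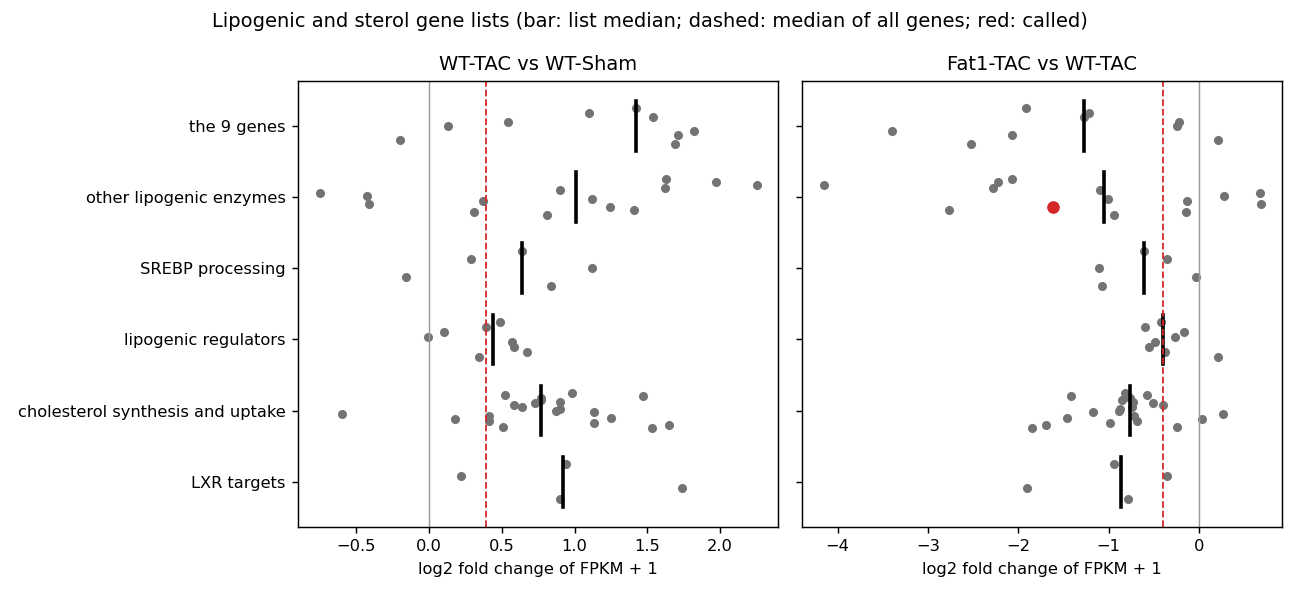
Log2 fold change of FPKM + 1 (horizontal axis) of each tested gene of the 9 and of the 5 pathway lists (rows) in the comparisons with WT-TAC, with a bar at the median of each list, a dashed line at the median of all tested genes and the called gene, G6pdx (-1.62), in red. The medians of the 9 genes (1.42 and -1.27) lie farthest from the dashed line, and those of the lipogenic regulators (0.44 and -0.40) lie next to it.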

How the data were processed

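RNA-sequencing of 8 mouse heart libraries in 4 groups was analysed. The authors deposited FPKM values, fragments scaled to transcript length and library depth. The submitters' processing notes name HISAT2 and mm10 (GRCm38), the methods a mapping to the reference transcriptome, and the counting program and annotation are not given in the sources used here. Gene coordinates are those of GENCODE M21 (GRCm38).

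For 100.00% of 25929 genes the FPKM values came out as whole fragments (within 0.01), which gave the depth and an alternative test by limma-voom. The main test, checked on simulated data, was limma (version 3.58.1, R 4.3.3) with lmFit and trended eBayes. The simulation took its spread from the groups other than WT-TAC, so it does not cover the wider spread between the WT-TAC libraries. The fit used log2(FPKM + 1) and 4 group means over the 14442 genes that reached 1 FPKM in 2 or more libraries. Fold changes on this scale understate those of low genes. A call needed an adjusted p (Benjamini-Hochberg, two-sided, all genes) under 0.1 and a fold change over 1.5. An exact permutation test of 2 against 2 libraries cannot go below p = 0.33.

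The 9 genes, the 5 pathway lists, the 13 marker lists and the tests were chosen with earlier results of these data known. Named are the 9 genes, in each list the genes called and those with the highest and lowest log2 difference, the 3 genes most correlated with each of the 9, and marker genes, except some that are not reported here. Correlations without WT-TAC were added after the values were seen.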

Additional observations from a re-analysis of the deposited data

Results flagged for a closer look

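The sign of the response to TAC differed between genotypes in Srebf2 and in 3 named genes of the pathway lists. In each, both WT-TAC libraries were above both WT-Sham libraries, and both Fat1-TAC libraries were below both Fat1-Sham libraries. For Srebf2 the interaction was -1.42 on the log2 scale, and in the lists it was -0.69 for Mlxip, the MondoA gene, -0.77 for Hmgcs1, the HMG-CoA synthase of the mevalonate pathway, and -1.05 for Pmvk, phosphomevalonate kinase. None of these 4 interactions passed limma's test (adjusted p = 0.495 for each). After scaling by the median of ratios the mean of Hmgcs1 in WT-TAC no longer exceeded that in WT-Sham (-0.04), while the means of the other 3 genes kept both signs. Of those 3, the WT-TAC libraries of Mlxip and Pmvk then overlapped WT-Sham, and those of Srebf2 did not. Taken singly, a rise without overlap after TAC in WT hearts was found in 52.5% of all tested genes. A fall without overlap after TAC in fat-1 hearts was found in 21.5%. The share of all genes with libraries apart in both opposite ways was not computed. The pattern therefore does not set these 4 genes apart.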

How the results depend on the processing

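Counts of the 9 genes called were 0 under both rescalings, both other filters, a pseudocount of 0.1, limma without a trend, a test without moderation, limma-voom and a fit of only the compared groups, while all-gene counts of genes up in WT-TAC against WT-Sham ran from 6 (limma-voom) to 286 (no filter), against 133, and, for genes lower in Fat1-TAC relative to WT-TAC, from 13 (quantile normalization) to 342 (no filter), against 201. The numbers of replicates do not pair the samples (correlations of -0.135 to 0.024 between groups), and with the replicate number as a block 0 of the 9 were called in each comparison and, among all genes, 52 higher in WT-TAC and 51 lower with TAC in fat-1 hearts than in WT hearts. Leaving out 1 library gave 0 to 4 of the 9 called for WT-TAC against WT-Sham, 0 to 5 for Fat1-TAC against WT-TAC, 0 to 2 for the interaction, 0 to 4 for genotype and 0 to 2 for surgery, the upper value each time without WT-TAC2, and otherwise only Acly was called, without Fat1-TAC2. The fit without WT-TAC2 leaves 1 library in that group, and it also called a large share of all tested genes in each of these comparisons. The upper values therefore do not set the 9 genes apart, and whether they exceed the share of all genes was not tested. Of 801 log2 differences recomputed for the 9 genes, 749 kept their sign and side of the threshold, 12 passed it and 40 changed sign, the cause of which was not tested. With 2 libraries a group, the spread within groups limits these calls.

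Signs turned under median-of-ratios scaling and quantile normalization, in this order, for Mlxipl between the sham groups (0.03 and 0.00), Me1 in WT-TAC against WT-Sham (-0.34 and -0.19) and Fat1-TAC against WT-TAC (0.22 and 0.10), Mlxipl in the latter (0.21 and 0.28), and the interactions of Acacb (0.28 and 0.23) and Mlxipl (0.18 and 0.28). Under the first alone they turned for Srebf1 between the sham groups (0.00) and the interaction of Me1 (0.04). Leaving out 1 library gave, between the sham groups, -0.57 to 0.49 for Srebf1, -1.71 to 0.90 for Fasn, -1.17 to 0.69 for Acaca, -0.63 to 0.31 for Acly, -0.88 to 0.34 for Thrsp and -0.20 to 0.19 for Mlxipl. Between Fat1-TAC and Fat1-Sham it gave -2.93 to 0.56 for Fasn, -1.61 to 0.42 for Acaca, -0.88 to 0.47 for Acly and -0.85 to 0.38 for Thrsp. For WT-TAC against WT-Sham it gave -0.74 to 0.35 for Acacb and -0.38 to 0.64 for Me1, for Fat1-TAC against WT-TAC -0.33 to 0.75 for Acacb, -0.75 to 0.27 for Me1 and -0.69 to 0.24 for Mlxipl, and for the interaction -0.68 to 0.41 for Acacb, -0.90 to 0.13 for Me1 and -0.68 to 0.25 for Mlxipl. After median-of-ratios scaling the correlation with adipocyte markers became -0.026 for Me1, 0.225 for Mlxipl and 0.62 for Srebf1 (adjusted exact permutation p = 0.18). Spearman's rho of Srebf2 became 0.714 (adjusted exact permutation p = 0.0864). Fasn, Acaca, Acly and Thrsp kept r of 0.835 to 0.97. Without scaling, r became -0.748 for Me1 and 0.357 for Mlxipl without the 2 farthest libraries, and 0.366 for Srebf1, 0.382 for Mlxipl and 0.281 for Acacb without WT-TAC.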

Other observations

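Markers of other cells were read in the same libraries as ranges of the summed FPKM. The thymocyte and lymphocyte list was at 687 FPKM in WT-TAC1, 33.7 FPKM in WT-TAC2 and 0.723 to 28.2 FPKM in the other groups. Its thymocyte and T cell genes Rag1, Dntt, Ptcra and Cd3e were high in WT-TAC1 only. They had 252, 267, 8.45 and 87.8 FPKM there and at most 0.226 FPKM in every other library. The sum in WT-TAC2 was mostly Jchain, at 28.7 FPKM there, 67.4 FPKM in WT-TAC1 and 24.5 FPKM in Fat1-TAC2. Schwann cell markers were at 37.7 to 51.9 FPKM in WT-TAC and at 5.80 to 14.2 FPKM elsewhere. Summed alveolar epithelium markers, at 116 to 161 FPKM in WT-TAC and 89.5 to 143 FPKM elsewhere, were mostly Hopx (69.05 to 118.7 FPKM), which heart also expresses. Sftpc, a surfactant protein gene, was at 74.7 FPKM in WT-TAC1, 29.9 FPKM in Fat1-Sham1 and at most 0.139 FPKM in the other 6 libraries, and Sftpa1, another, was at 7.70 and 3.52 FPKM in WT-TAC, 3.82 FPKM in Fat1-Sham1 and 0 in the other 5. Summed brown adipocyte markers, at 984 to 1806 FPKM in WT-TAC and 1849 to 2576 FPKM elsewhere, were mostly Cox7a1, which heart muscle also expresses, while 4 of the 5 markers had a higher mean in WT-TAC than WT-Sham hearts, among them Cidea with 41.6 and 115 FPKM against 28.0 and 37.9 FPKM. Macrophage markers were at 45.4 to 60.7 FPKM in WT-Sham, 58.5 to 82.8 FPKM in WT-TAC and 38.2 to 43.7 FPKM in the fat-1 groups. Fibroblast markers were at 542 to 858 FPKM in WT-Sham, 861 to 873 FPKM in WT-TAC and 488 to 534 FPKM in the fat-1 groups. Summed endothelial markers were lowest in WT-TAC (178 to 235 FPKM, against 238 to 267 FPKM elsewhere). Pecam1 of that list was not, with 72.0 and 72.2 FPKM in WT-TAC and 65.6 and 63.0 FPKM in Fat1-TAC. Summed blood markers, mostly Hba-a1 and Hbb-bs, were highest in WT-Sham (9666 to 10580 FPKM, against 4240 to 8435 FPKM elsewhere). Hba-a2 was instead highest in WT-TAC, with 308 and 364 FPKM against 144 and 107 FPKM in WT-Sham, and Alas2 was highest in WT-TAC2 (88.2 FPKM). Summed skeletal muscle markers were at 32.5 FPKM in WT-TAC1 and 6.55 to 11.99 FPKM elsewhere, where they were mostly Mybpc2. The myosin genes Myh1, Myh2 and Myh4 were at 8.39, 5.18 and 4.47 FPKM in WT-TAC1 and at most 0.0716 FPKM in the other 7 libraries, and Actn3 was at 6.74 FPKM against at most 0.757 FPKM.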
